A study of Mus musculus with 6 samples.

Results

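The circular RNAs (circRNAs) described here are those that the deposited circRNA tables name by position alone, with no circBase identifier, and that span at least 10000 bases of the genome between their 2 joined ends. This rule used names and coordinates only and no measured value. It gave 744 circRNAs out of 3168 in the tables. Another 670 were also named by position but were shorter, and 1754 carried a circBase identifier. Just inside the limit were circRNAs of Zfr (10001 bases), Nmt2 (10053 bases) and Dcaf1 (10073 bases), and just outside it those of Adamts6 (9929 bases), Uck2 (9917 bases) and Ptcd3 (9899 bases). RNA came from N2a cells, a mouse neuroblastoma line labelled as neuron, kept in medium with 2% serum and 10 µM retinoic acid for 96 h to differentiate them. One group of 3 libraries then received the solvent DMSO, and the other 3 received RSL3 at 5 µM for 24 h; RSL3 blocks the glutathione peroxidase GPX4 and induces ferroptosis. The comparison asks which RNAs differ in neuron-like cells once ferroptosis is induced. Separate cultures for the libraries of each treatment are not stated in the labels, so p-values measure only the spread between these libraries, which may be technical.

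A circRNA forms when the spliceosome joins the end of a downstream exon (the donor) to the start of an upstream exon (the acceptor) of the same transcript. The resulting loop has no cap and no poly(A) tail, and only the reads that cross this back-splice junction tell it apart from the linear RNA of its host gene. Back-splicing is known to be favoured by long flanking introns, by inverted repeats that pair across the loop and by proteins such as Quaking, while the helicase DHX9 and the editing enzyme ADAR act against such pairing. Neurons are rich in circRNAs, many of them from genes of the synapse.

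The junction is the part of the molecule that these data count, so it is printed for the circRNAs on which the results turn. Each line gives 40 bases of the RNA sense strand, from 5′ to 3′. The last 20 bases of the donor exon are in lower case and the first 20 bases of the acceptor exon in capitals. All were read from the GENCODE M21 transcript sequences (build GRCm38), and both sides of each junction are coding sequence.
Rims2, chr15:39274976-39292312 (+), exon 4 to exon 2: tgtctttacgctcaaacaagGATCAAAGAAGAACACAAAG
Rps6ka2, chr17:7227913-7271656 (+), exon 11 to exon 2: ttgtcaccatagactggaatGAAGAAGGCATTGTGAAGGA
Med13, chr11:86283200-86308912 (-), exon 23 to exon 10: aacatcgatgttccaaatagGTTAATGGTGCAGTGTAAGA
Psme4, chr11:30791092-30823154 (+), exon 20 to exon 2: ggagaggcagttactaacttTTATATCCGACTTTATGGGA
Ern1, chr11:106434915-106459028 (-), exon 4 to exon 2: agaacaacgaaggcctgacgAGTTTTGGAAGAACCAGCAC
Stag1, chr9:100834418-100891136 (+), exon 21 to exon 10: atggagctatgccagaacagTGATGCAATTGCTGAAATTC

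A second set shows how several long circRNAs of a gene share an acceptor. The capitals are identical within a gene and only the donor side differs.
Glcci1, chr6:8537817-8579739 (+), exon 5 to exon 2: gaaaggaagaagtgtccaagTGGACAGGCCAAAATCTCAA
Glcci1, chr6:8537817-8582790 (+), exon 6 to exon 2: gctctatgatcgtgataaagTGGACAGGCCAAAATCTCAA
Vps13b, chr15:35471883-35770863 (+), exon 36 to exon 17: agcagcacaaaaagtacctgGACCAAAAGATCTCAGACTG
Vps13b, chr15:35471883-35794489 (+), exon 39 to exon 17: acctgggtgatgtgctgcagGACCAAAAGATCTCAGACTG
Vps13b, chr15:35471883-35847007 (+), exon 43 to exon 17: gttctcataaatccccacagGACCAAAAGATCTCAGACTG
All 744 junctions had a 40-base sequence that no other long circRNA shared.

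Both ends of all 744 long circRNAs fell on exon ends of a single annotated transcript. The host was 1 gene for 737 of them, while 7 matched 2 overlapping genes (5 Glcci1 with Gm45062, and 2 Cdan1 with Ttbk2). Their hosts were protein-coding in 742 cases. Span had a median of 23167 bases and reached 375125 bases, and 59 circRNAs spanned at least 100000 bases. Most of that span was intron: the annotated exons between the 2 ends summed to a median of 912 bases, or 3.91% of the span, against 417 bases and 13.2% in the 670 shorter circRNAs. The long circRNAs held a median of 7 exons, from 2 to 64, and the shorter ones a median of 3. The most exons were counted in a Birc6 circRNA (64 exons, 13069 spliced bases), whose gene encodes a very large ubiquitin ligase that inhibits cell death. The shortest spliced length, 169 bases, belonged to a circRNA of the kinase gene Mark3. Which exons are kept inside a loop was not observed, because only the junction is counted.

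**Figure D1:**
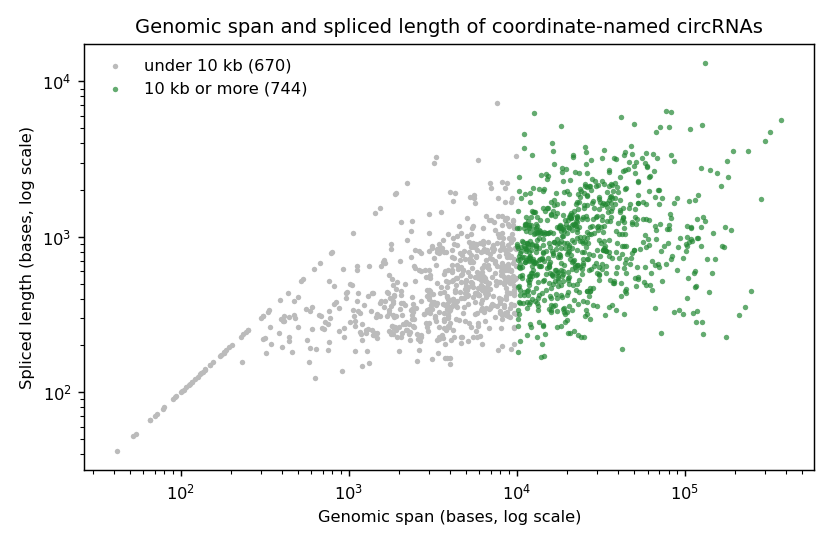
Genomic span (x axis, bases, log scale) against summed length of the annotated exons between the joined ends (y axis, bases, log scale) for 744 circRNAs of at least 10 kb (green) and 670 shorter ones (grey), 1 point each. The long circRNAs reach 375125 bases of span while their median spliced length is 912 bases.

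The introns beside the joined exons were long as well. The upstream intron had a median of 10210 bases and the downstream intron one of 5867 bases, against 3825 and 2879 bases for the shorter circRNAs; span and the host's intron lengths are not independent. The acceptor was exon 2 in 316 of the long circRNAs (42.5%) and in 216 of the shorter ones (32.2%), and it was exon 1 in 1 of each set. Only coding sequence lay inside 579 long circRNAs (77.8%), and 143 (19.2%) held the start codon of their host. Of the 579, 235 (40.6%) had a spliced length that is a multiple of 3, and each of these 235 had a reading frame with no stop codon all the way round the circle. Among the shorter circRNAs the share was 41.3% (231 of 559), and all 231 also had such a frame. That outcome was nearly fixed in advance. The host's own frame is open through coding sequence, so only the codon at the junction could hold a stop. Median GC content of the spliced sequence was 47% in the long and 47.8% in the shorter set. These are descriptions of annotation, without a test, and translation was not measured.

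Junctions were shared unevenly among hosts. The 744 circRNAs came from 550 host genes, of which 433 gave a single one and 117 gave 2 or more. These 117 genes held 311 of the long circRNAs (41.8%). An acceptor was shared with another long circRNA in 163 cases (21.9%) and a donor in 51 (6.85%). Acceptors shared by 4 or more long circRNAs included exon 17 of Vps13b with 7 and exon 2 of Glcci1 with 5. CircRNAs that share a host or an acceptor also share sequence and are not independent observations.

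Before the results by group, the libraries themselves. Total back-splice reads ran from 7179 to 9409 per library with DMSO and from 5226 to 7364 with RSL3. RSL3 replicate 1 was the shallowest, and its mRNA profile correlated least with its own group. The mean Pearson r over tested mRNAs was 0.977, against 0.981 to 0.992 in the other 5 libraries. For RSL3 replicates 1 to 3 the mean r was 0.977, 0.981 and 0.985 with their own group. With the DMSO libraries it was 0.97, 0.982 and 0.982, so replicate 2 was no closer to its own group. Genes are not independent replicates. Of 12 neuronal markers, 10 had an entry in the mRNA table, and they summed to 614 to 617 FPKM in DMSO cells against 500 to 549 FPKM after RSL3; Nefl and Nefm had none. Markers of astrocytes, microglia, oligodendrocytes and fibroblasts had 5 entries out of 20 and summed to at most 5.02 FPKM per list and library, with Gfap, Aif1, Olig2 and Dcn not listed. All 8 liver markers were listed, and they summed to 48.1 to 64.9 FPKM in DMSO cells against 10.8 to 20.8 FPKM after RSL3. The 2 lncRNAs that lie over ribosomal RNA (Gm26917 and Gm42418) summed to 18793 to 22979 FPKM in DMSO cells against 26639 to 33129 FPKM after RSL3. The part of these differences in any result below was not tested. In such bulk libraries fewer cells and less RNA per cell cannot be told apart.

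Detection was sparse. A long circRNA had a median of 5 reads over all 6 libraries together, and 667 of 744 (89.7%) had 3 to 10. Reads came from 1 library only for 318 (42.7%) and from all 6 for 22 (2.96%). The shorter circRNAs had the same median of 5 reads, and 317 of 670 (47.3%) were seen in a single library. CircRNAs with a circBase identifier had a median of 9 reads and were seen in all 6 libraries in 18% of cases. Every circRNA of the tables has at least 3 reads in total, so rarer ones are not represented. The labels' protocol names a poly(A) isolation module as its step against rRNA, while circRNAs have no such tail; which fraction of the RNA was sequenced, and so how far these counts reflect circRNA levels in the cells, was not tested.

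**Figure D2:**
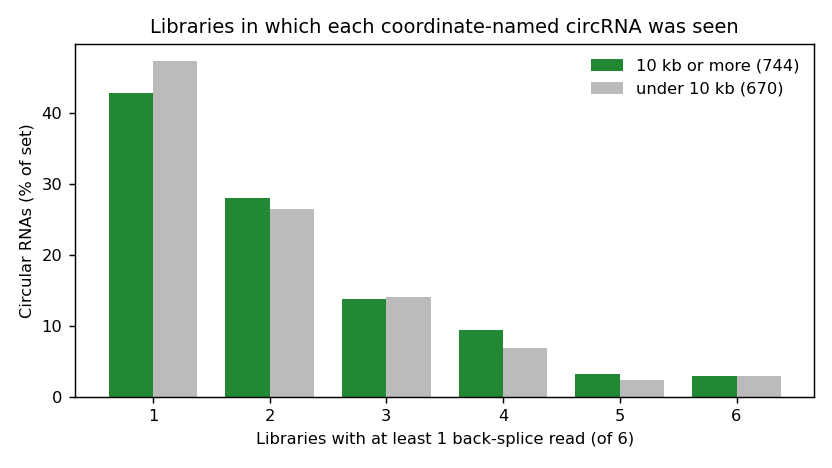
Share of circRNAs (y axis, % of the set) by the number of libraries, of 6, in which at least 1 back-splice read was seen (x axis), for the 744 circRNAs of at least 10 kb (green) and the 670 shorter ones (grey). Single-library circRNAs are the most frequent class in both sets, at 42.7% and 47.3%.

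Reads per circRNA had no steady order by span within the set. The 302 circRNAs of 10000 to 20000 bases had a mean of 7.04 reads each, the 295 of 20000 to 50000 bases 8.26, the 88 of 50000 to 100000 bases 5.59 and the 59 of 100000 bases or more 9.07. The median was 5 in each of these 4 classes. Long circRNAs had slightly more reads each than the shorter ones with DMSO, and about as many with RSL3. The mean reads per long circRNA, divided by that per shorter circRNA, was 1.12, 1.25 and 1.24 after DMSO and 1, 1.01 and 1.02 after RSL3. The mean log2 ratio was 0.14, above 0 in 6 of 6 libraries, with p = 0.0312 in a two-sided exact sign-flip permutation test, the smallest p that 6 libraries allow. Without the most-read circRNA of each set (that of Rps6ka2, described below, among the long ones) the mean log2 ratio was 0.13. Its size thus hardly moved, but the call was lost (exact permutation p = 0.188).

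The long circRNAs held a smaller share of the coordinate-named reads in each RSL3 library than in any DMSO library. That share was 55.4%, 58.1% and 57.8% after DMSO and 52.7%, 53% and 53.2% after RSL3. The means were 57.1% ± 1.47 (SD, n = 3) and 53% ± 0.287 (SD, n = 3), a difference of -4.19 percentage points with p = 0.1 in a two-sided exact permutation test, the smallest p that 3 against 3 allows. The 95% Wilson intervals of single libraries, for counting error only, overlapped for some pairs across the groups (53.2% to 57.7% in DMSO replicate 1, 50.9% to 55.5% in RSL3 replicate 3) and not for others (55.7% to 60.5% in DMSO replicate 2, 50% to 55.3% in RSL3 replicate 1). The difference was -4.04 points without RSL3 replicate 1. It was -2.9 points without the Rims2 circRNA described below, a setting chosen after the data were seen. At a limit of 20000 bases it was -2.58 points and the groups overlapped (exact permutation p = 0.3). A share of this kind depends on the shorter circRNAs as much as on the long ones. With DMSO the shorter ones held 834, 671 and 713 of 9409, 7194 and 7179 back-splice reads. With RSL3 they held 624, 888 and 833 of 5226, 7364 and 6782, a larger part in each library than in any DMSO library. All of these are shares within a library, so whether long circRNAs fell in amount was not tested.

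**Figure D3:**
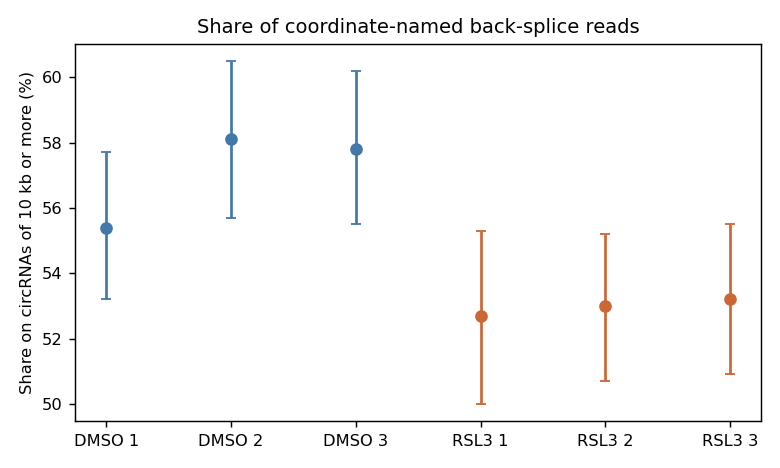
Share of coordinate-named back-splice reads that fell on circRNAs of at least 10 kb (y axis, %, not starting at 0) in each library (x axis), with 95% Wilson intervals for counting error as bars; DMSO is blue and RSL3 orange. The DMSO libraries lie between 55.4% and 58.1% and the RSL3 libraries between 52.7% and 53.2%.

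Over all back-splice reads no such difference was found. The long circRNAs held 11%, 13% and 13.6% of them after DMSO and 13.3%, 13.6% and 14% after RSL3. These groups overlapped, and the means of 12.5% ± 1.35 and 13.6% ± 0.35 (SD, n = 3 each) gave an exact permutation p = 0.3, two-sided. The difference of 1.08 points was 0.323 without DMSO replicate 1 and 1.62 without DMSO replicate 3. The number of long circRNAs seen was 250, 258 and 272 with DMSO and 210, 293 and 289 with RSL3, and overlapped widely (exact permutation p = 1, two-sided). Thinned to the 5226 reads of the shallowest library, the expected numbers were 205, 235 and 249 with DMSO and 210, 266 and 270 with RSL3. Some reads were seen with both treatments for 277 long circRNAs, with DMSO only for 199 (26.7%) and with RSL3 only for 268 (36%). Among the shorter circRNAs these last shares were 25.8% and 39%, and among those with a circBase identifier 12.3% and 11.2%.

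No single long circRNA passed the test. Of the 744, 218 had reads in at least 3 libraries and were fitted with all 1662 such circRNAs in limma. At an adjusted p below 0.05 none of the 1662 was called (0%), and the smallest adjusted p among the long circRNAs was 0.556. At an unadjusted p below 0.05, 18 of the 218 were lower with RSL3 (8.26%) and 1 was higher (0.459%), where the shares over all 1662 were 5.72% and 2.05%. In 16 of these 18, and in the 1 that was higher, the other group had no read at all, so that they passed the filter only through the group in which they were seen. Values of the 2 groups did not overlap for 21 lower and 6 higher long circRNAs (9.63% and 2.75%), beside 7.46% and 4.33% of all tested. The quasi-likelihood test of edgeR on the recovered reads called 1 circRNA of the 1662, which was not a long one. It gave 21 of the 218 long circRNAs an unadjusted p below 0.05, beside 108 of all 1662. The balance of 18 lower to 1 higher in limma depended on the setting. Below the same unadjusted p, 5 of 7 were lower without RSL3 replicate 1, 4 of 7 without RSL3 replicate 2 and 4 of 6 without RSL3 replicate 3. Without DMSO replicates 1 to 3 it was 17 of 17, 19 of 19 and 19 of 20. Over all 1662 circRNAs the number below that p was 78, 79 and 81 without RSL3 replicates 1 to 3. Without DMSO replicates 1 to 3 it was 101, 95 and 101. With other pseudocounts 18 of 20 and 17 of 18 long circRNAs were lower, and 18 of 20 both with scaling to the library's own sum and with a replicate block. With all 744 fitted 6 of 8 were lower, without the variance trend 9 of 12, and among the 22 seen in every library 1 of 1. In these limma settings 86 of 3168, 103 of 1662 and 25 of 358 circRNAs of any kind were below that p. In edgeR 17 of the 21 were lower. The median log2 difference of the 218 was -0.15 and that of all tested -0.11; with all 744 fitted the median of the long circRNAs was 0.29.

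The long circRNA with the smallest p, 0.00922 before adjustment in limma, came from a synaptic gene. Rims2 encodes a scaffold protein of the presynaptic active zone that helps to dock and prime vesicles. Its circRNA of exons 2 to 4 (17337 bases of span, 331 spliced) had 42, 36 and 29 reads with DMSO and 12, 16 and 10 with RSL3. Every RSL3 library was below every DMSO library, as for 9.63% of the tested long circRNAs and 7.46% of all tested. This circRNA was picked by its p in these same libraries, so the separation adds no support. Scaled to all back-splice reads it was 2.29-fold lower with RSL3. In limma the log2 difference was -1.16 ± 0.45 (SE) with an adjusted p of 0.556, which does not pass. In edgeR the log2 difference was -1.14 with an adjusted p of 0.664, and leaving out 1 library gave -1.26 to -0.99 in limma.

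The other long circRNAs of Rims2, taken as a sum, did not show this pattern. There were 7, all downstream or with another donor, spanning up to 179514 bases. Summed, they had 7, 4 and 10 reads with DMSO and 1, 9 and 10 with RSL3, or 21 against 20. Each had 3 to 11 reads in all, too few to compare one by one. Linear Rims2 mRNA averaged 11.4 ± 0.4 FPKM in DMSO cells against 10.1 ± 0.615 FPKM after RSL3 (SD, n = 3 each). Its log2 difference of -0.16 ± 0.07 (SE) on the log2(FPKM + 1) scale had an adjusted p of 0.236 in limma, and the difference between circular and linear Rims2 was not tested.

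**Figure D4:**
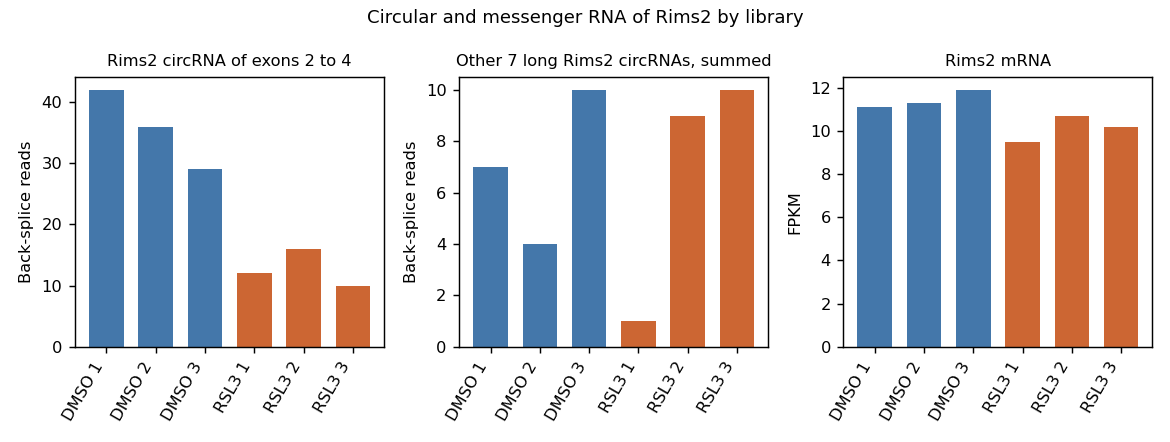
Back-splice reads of the Rims2 circRNA of exons 2 to 4 (left), summed reads of the other 7 long Rims2 circRNAs (middle) and Rims2 mRNA in FPKM (right), 1 bar per library, DMSO in blue and RSL3 in orange; the y axes differ. The circRNA of exons 2 to 4 has 29 to 42 reads with DMSO and 10 to 16 with RSL3, while the other 7 sum to 4 to 10 and 1 to 10.

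Signalling enzymes gave several of the most-read long circRNAs. Rps6ka2 encodes a ribosomal S6 kinase of the RSK family, downstream of ERK. Its circRNA of exons 2 to 11 (873 spliced bases) had the most reads of all 744, 269. It had 39, 34 and 41 reads with DMSO and 55, 65 and 35 with RSL3. RSL3 replicate 3 lay among the DMSO values, and the log2 difference of 0.67 ± 0.34 (SE) had an adjusted p of 0.656 in limma. Rps6ka2 mRNA was 34.3 ± 1.12 and 35.9 ± 0.83 FPKM (SD, n = 3 each; adjusted p = 0.561 in limma).

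Ppm1b encodes a metal-dependent serine/threonine phosphatase. Its circRNA (chr17:84993680-85005566, + strand, exons 2 to 5) had 49, 25 and 34 reads with DMSO and 17, 42 and 26 with RSL3. The ranges overlapped and the log2 difference was -0.1 ± 0.39 (SE). Without DMSO replicate 1 or RSL3 replicate 1 it changed sign, to 0.03 and 0.1.

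**Figure D5:**
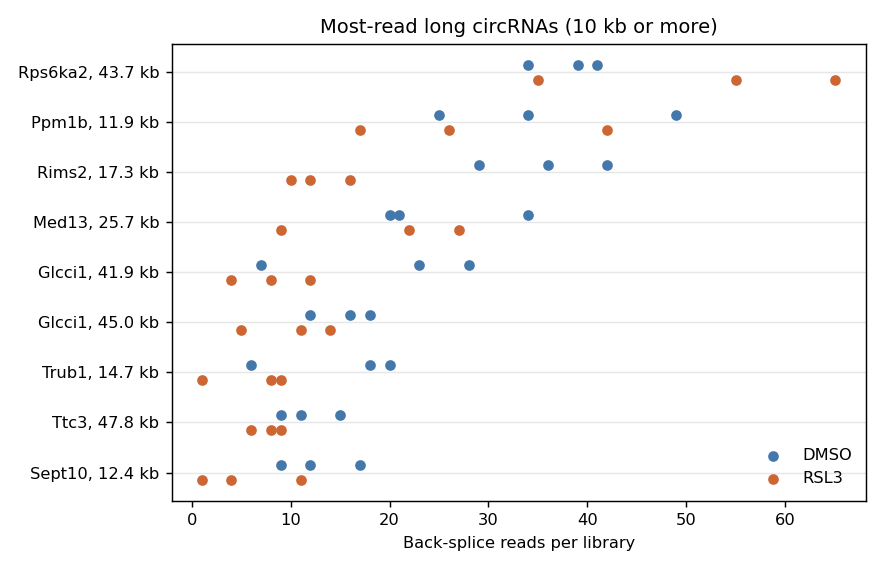
Back-splice reads per library (x axis) of 9 of the 10 long circRNAs with the most reads, named by host gene and span in kb (y axis), with 3 DMSO libraries (blue) and 3 RSL3 libraries (orange) as points. Of these 9, only the Rims2 circRNA has groups that do not overlap, at 29 to 42 and 10 to 16 reads.

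Among regulators of transcription, Med13 gave the fourth most-read long circRNA. MED13 belongs to the kinase module of the Mediator complex. The circRNA of exons 10 to 23 (3504 spliced bases) had 21, 34 and 20 reads with DMSO and 9, 27 and 22 with RSL3. The ranges overlapped; its log2 difference of -0.18 ± 0.45 (SE) became 0.1 without DMSO replicate 2 and 0.17 without RSL3 replicate 1.

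Glcci1, a glucocorticoid-induced gene, gave 2 of the 10 most-read circRNAs, both from the shared acceptor at exon 2. The one ending at exon 5 had 28, 7 and 23 reads with DMSO and 12, 8 and 4 with RSL3, and the one ending at exon 6 had 16, 18 and 12 against 5, 14 and 11. Each pair of groups overlapped. All 5 long Glcci1 circRNAs, each of which also matched Gm45062, summed to 48, 28 and 45 reads against 28, 27 and 23. Again the ranges touch, at 28. Glcci1 mRNA varied within both groups (1.34, 6.88 and 1.49 FPKM in DMSO cells, 3.68, 1.19 and 1.69 FPKM after RSL3).

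Another 3 circRNAs of the top 10 were lower in mean with RSL3 but overlapped. Trub1 encodes a pseudouridine synthase, and its circRNA of exons 2 to 4 had 20, 6 and 18 reads with DMSO and 8, 9 and 1 with RSL3 (log2 difference -1.07 ± 0.62, SE; adjusted p = 0.83 in limma). Ttc3 encodes a ubiquitin ligase, and its circRNA of exons 10 to 35 had 15, 9 and 11 against 9, 8 and 6. Sept10 encodes a septin, a GTP-binding protein of the cytoskeleton, and its circRNA of exons 6 to 9 had 12, 17 and 9 against 4, 11 and 1 (log2 difference -1.19 ± 0.64, SE; adjusted p = 0.717 in limma). Without RSL3 replicate 3, which had 1 read of each, the Trub1 difference was -0.28 and the Sept10 difference -0.51. Without other single libraries the Trub1 value ran from -1.53 (without DMSO replicate 2) to -0.8 and the Sept10 value from -1.78 (without RSL3 replicate 2) to -0.93. The top 10 together held 1165 reads, 20.8% of all 5590 reads on long circRNAs.

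The circRNAs with the next smallest p-values were rare ones seen in a single group. That of Psme4, which encodes the proteasome activator PA200, had 2, 4 and 4 reads with DMSO and none with RSL3. That of Ern1, which encodes the endoplasmic reticulum stress sensor IRE1α, had 7, 2 and 2 reads with DMSO and none with RSL3. With 0 counted as 3 reads over the 19372 of the RSL3 group, they were 2.72-fold and 2.99-fold lower. In the other direction, the circRNA of Stag1, a cohesin subunit gene, had 2, 1 and 4 reads with RSL3. It had no read among the 23782 of the DMSO group and was 2.86-fold higher with a floor of 3 reads over the group. The floor covers counting error in the empty group only, and the reads of the other group are taken as exact. These circRNAs were picked by p and passed the filter only through 1 group, so the folds are not lower bounds. All 3 had an adjusted p of 0.556 in limma and of 0.664 in edgeR. Their host mRNAs did not pass the test: Psme4 was 17.6 ± 0.567 and 17.8 ± 4.68 FPKM, Ern1 12.1 ± 0.187 and 12.4 ± 1.17 FPKM, and Stag1 4.34 ± 0.1 and 3.6 ± 0.81 FPKM with DMSO and RSL3 (SD, n = 3 each).

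The longest circRNAs belonged to Vps13b, which encodes a lipid transfer protein of the Golgi. The 3 longest, of 375125, 322607 and 298981 bases, all start at exon 17, the acceptor printed above. The longest had 5 reads, all from DMSO replicate 1. The second had 0, 2 and 2 reads with DMSO and 0, 1 and 0 with RSL3. The third had 1, 0 and 0 with DMSO and 3, 1 and 2 with RSL3 (adjusted p = 0.851 in limma), with 1 read each in the nearest libraries of the 2 groups. All 9 Vps13b circRNAs summed to 13, 13 and 8 reads with DMSO and 15, 9 and 11 with RSL3, 34 against 35, and the mRNA was 4.68 ± 0.229 and 4.88 ± 0.885 FPKM (SD, n = 3 each). The remaining 6 had 3 to 17 reads each and spanned 62478 to 237931 bases.

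Host genes were grouped by lists of what they do. Guanine exchange factors, GTPase activating proteins and kinases contributed 34 hosts with 54 long circRNAs and 485 reads. Chromatin and transcription regulators contributed 32 hosts, 51 circRNAs and 378 reads, led by Med13. Ubiquitin ligases and deubiquitinases contributed 24 hosts, 35 circRNAs and 201 reads, led by Arih1, whose circRNA of exons 2 to 5 had 9, 5 and 9 reads with DMSO and 3, 4 and 5 with RSL3. Cytoskeletal, motor and centrosome genes contributed 11 hosts and 60 reads. Neuronal adhesion, guidance, channel and synapse genes contributed 11 hosts, 23 circRNAs and 266 reads, which were 72, 58 and 56 with DMSO and 23, 35 and 22 with RSL3. The Rims2 circRNA of exons 2 to 4 held 145 of these 266 reads. For the tested circRNAs of each list the median log2 difference was -0.13 for chromatin (14 tested), -0.16 for ubiquitin (4), -0.53 for neuronal genes (6), 0 for exchange factors and kinases (21) and 0.82 for cytoskeletal genes (1), beside -0.11 over all tested. The other 433 hosts, with 561 circRNAs, were in no list.

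Of 24 listed genes of ferroptosis and iron handling in the mRNA table, 2 gave a long circRNA (8.33%), beside 543 of all 11609 genes of the table (4.68%): Vdac2, a channel of the outer mitochondrial membrane, with 3 reads in RSL3 replicate 2, and Ireb2, an iron-sensing RNA-binding protein, with 1 and 2 reads in RSL3 replicates 1 and 2. At 3 reads each this is the lowest count that the tables hold. As a share of all genes listed, hosts made up 7.41% of this list. The share was 34.8% for chromatin, 32% for ubiquitin, 22.7% for exchange factors and kinases, 14.9% for cytoskeletal and 13.6% for neuronal genes. It was 7.32% for the genes, given below, that make, export or degrade circRNAs. Only 44 of the 81 neuronal and 62 of the 74 cytoskeletal genes were in the mRNA table. For exchange factors and kinases it was 134 of 150, for chromatin 86 of 92 and for ubiquitin 73 of 75. These shares thus also count listed genes with no entry, while the 4.68% does not, and their order was not tested.

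The linear mRNA of the hosts changed in few cases. Of 550 hosts, 543 were in the mRNA table and 534 were tested in limma. A single host was higher with RSL3 (0.187%) and 8 were lower (1.5%), where the shares over all 10590 tested genes were 2.46% and 3.92%. Hosts had a median level of 8.04 FPKM against 6.42 FPKM over all genes of the table. The median log2 difference was -0.075 for hosts and -0.031 for all tested genes. Over all tested genes 38.6% of the calls were upward, and 51.5% after quantile normalization; among hosts the shares were 11.1% and 22.2%. The number of hosts called was 30 without RSL3 replicate 1, 15 without RSL3 replicate 2, 3 without RSL3 replicate 3 and 2 to 3 without any 1 DMSO library.

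The host that rose was Adgrf4, an adhesion G protein-coupled receptor, from 8.12 ± 0.579 to 15.8 ± 1.81 FPKM (SD, n = 3 each; log2 difference 0.88 ± 0.1, SE; adjusted p = 0.00547 in limma). Of the 7 named hosts that fell, the largest log2 difference was that of Slit3, an axon guidance ligand, from 19.3 ± 0.633 to 12.4 ± 0.509 FPKM (log2 difference -0.61 ± 0.07, SE; adjusted p = 0.00494 in limma). Also lower were Osbpl6, an oxysterol-binding protein gene (8.05 ± 0.355 to 5.21 ± 0.221 FPKM), Arhgef28, a RhoA exchange factor gene (8.66 ± 0.277 to 5.52 ± 0.453 FPKM), and Nup210, a nuclear pore gene (21 ± 0.838 to 15.3 ± 1.09 FPKM). So were Ndufa10 of respiratory complex I (41.3 ± 0.788 to 33.2 ± 0.831 FPKM), the nucleoporin gene Aaas (70.6 ± 1.72 to 57.6 ± 2.09 FPKM) and Tiam2, a Rac exchange factor gene (5.12 ± 0.203 to 3.81 ± 0.0847 FPKM). Their adjusted p in limma ran from 0.0101 to 0.0423. None of these 6 passed with the replicate number as a block (adjusted p of 0.0533 to 0.132 in limma), and each was also lost without at least 2 of the 3 DMSO libraries in turn. Ndufa10 and Aaas were lost after quantile normalization, at 0.0557 and 0.073, and Aaas also under median-ratio scaling, while Adgrf4 and Slit3 passed in all 12 alternatives run. The circRNAs of these hosts were too rare to follow: the 2 of Slit3 had 7, 0 and 9 reads with DMSO and 0, 2 and 2 with RSL3, that of Ndufa10 had 2, 2 and 1 against 2, 0 and 0, and that of Adgrf4 had 1 read with DMSO and 3 with RSL3.

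The mRNAs of genes that make, export or degrade circRNAs were looked up in the same fit. Of 41 listed, 40 were tested. None was higher and 1 was lower, where the shares over all 10590 tested genes were 2.46% higher and 3.92% lower. The splicing regulator Hnrnpl went from 54 ± 1.87 to 45.5 ± 0.731 FPKM (SD, n = 3 each; log2 difference -0.24 ± 0.06, SE; adjusted p = 0.0495 in limma), and this call was lost with 10 of the alternatives. Qk, which encodes Quaking, was 9.75 ± 0.305 and 9.04 ± 1.92 FPKM with DMSO and RSL3, Adar 12.1 ± 1.84 and 12 ± 1.86 FPKM, and Dhx9 17.2 ± 0.667 and 18 ± 3.56 FPKM. The slicer gene Ago2 was 38.7 ± 1.89 and 41 ± 2.81 FPKM and the lariat debranching enzyme Dbr1 14.1 ± 0.913 and 12.8 ± 2.48 FPKM. None of these 5 passed, with adjusted p of 0.564 to 0.965 in limma. Of the 20 genes of back-splicing and intron pairing, 17 had a log2 difference below 0, with a median of -0.12. The median was -0.03 over the 14 turnover genes and -0.031 over all tested mRNA genes. The share of all tested genes below 0 is not given here, and no list was tested, so this lean is a description only. Of the 41, 3 were also hosts of a long circRNA, namely G3bp1, Rpp30 and Ago2, with 16 reads in all.

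The study's title speaks of a competing endogenous RNA axis, in which a circRNA would bind miRNAs, so the spliced sequences were searched for miRNA seed matches. The search took, for each of 1738 mature mouse miRNAs of the RefSeq table (1398 distinct seeds), an 8-base word, made of the bases that pair with miRNA bases 2 to 8 and then an A, on the RNA strand only and round the junction, with overlapping matches counted. Matches were equally dense in both sets, at 35.2 per 1000 bases in the long circRNAs and 35 in the shorter ones. Being longer, 378 long circRNAs (50.8%) held 2 or more matches to a single seed, against 26.6% of the shorter ones, and 87 (11.7%) held 3 or more, against 2.99%. The highest number was 11 for a Usp34 circRNA (chr11:23343511-23370354, + strand, exons 5 to 17). Of these matches, 10 lie in the 100 coding bases printed here, in capitals, beside the miRNA with its seed in capitals.
Usp34 circRNA, bases 1251 to 1350 of 2124: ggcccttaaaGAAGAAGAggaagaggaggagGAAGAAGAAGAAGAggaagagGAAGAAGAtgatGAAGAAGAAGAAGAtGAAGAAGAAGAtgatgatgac
mmu-miR-1903: cCUUCUUCuucuuccugagaca
Only 6 of the 11 matches do not overlap, and the 8-base word GAAGAAGA occurs in 22.8% of the long and 12.8% of the shorter circRNAs. The Usp34 circRNA had 4 reads, all from DMSO replicate 3. Among the 10 most-read long circRNAs, those of Med13 and Ttc3 held at most 2 matches to any seed, and the other 8 at most 1. A match is a description of letters and not a site of binding, and miRNAs were not measured here.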

How the data were processed

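CircRNA values are headed CPM per the file headers, but a library's values sum to anything from 945239 to 1030940, so they were treated as a signal. The deposited signal moves in steps: 100% of the values above 0 are, to within 0.01, whole multiples of that library's lowest one, and the multiple was used as the number of back-splice reads. The authors deposited mRNA and lncRNA values as FPKM, whose read depth is unknown; the submitters' processing notes list StringTie 1.3.3, HISAT2, cutadapt and the build GRCm38. For the circRNA caller, the sources used here give no name. Per the labels' protocols, RNA was extracted with TRIzol, a poly(A) module was used at the step for ribosomal RNA and the library kit was stranded; molecular identifiers are not mentioned, so intervals and floors cover counting error only.

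The ends of each position-named circRNA were matched to exon ends of GENCODE M21 with starts counted from 0 in the files; positions are printed counted from 1. Where several transcripts fitted, the longest protein-coding one gave the exon numbers and spliced length. A value missing from a library's table counted as 0 reads.

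RSL3 was compared with DMSO (3 libraries each, all in 1 fit, no covariate) in limma 3.58.1 (R 4.3.3) with a variance trend, as a two-sided test whose p-values were adjusted over all features tested (Benjamini-Hochberg, threshold 0.05). For circRNAs the scale was log2(value + 140), where 140 is the middle of the 6 libraries' lowest non-zero values, for those above 0 in at least 3 libraries. For mRNA it was log2(FPKM + 1), with genes kept that reach 1 FPKM in 3 or more libraries. A fold on these scales understates changes of low features. Alternatives were other pseudocounts, filters and scalings, no trend, edgeR 4.0.16 on the recovered reads, a replicate block and each library left out. Shares and numbers per library were compared by exact permutation tests over libraries, and intervals are Wilson intervals at 95% (SciPy 1.17.1). No 2 libraries of a group were alike within sampling noise: over circRNAs with at least 10 reads in a pair the chi-square per degree of freedom was 2.57 to 3.5.

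The circRNAs named are the 10 with the most reads, the 3 lowest and 3 highest with RSL3 by p (none passed), the 3 longest and all of the 3 hosts with the most; of the hosts, theirs and up to 8 past the threshold by p; of the biogenesis list, those past it and Qk, Adar, Dhx9, Ago2 and Dbr1. One gene that this rule takes is not reported here. Others named were picked after their values were seen (Birc6, Mark3, Usp34, Arih1, Vdac2, Ireb2, G3bp1 and Rpp30). The set and the gene lists were chosen with earlier results of these data known, and no list was tested. Flanking intron sequence and the lncRNA tables were not used here for results, apart from 2 lncRNAs over ribosomal RNA.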

Additional observations from a re-analysis of the deposited data

How the results depend on the processing

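The labels number the libraries but state no pairing, and same-numbered libraries did not deviate together (correlations of -0.05, -7.34e-05 and -0.02 for circRNAs, and -0.145, 0.05 and -0.06 for mRNA). With a replicate block, 0 circRNAs and 0 long circRNAs were called, 253 mRNAs instead of 676, 3 hosts instead of 9 and 0 biogenesis genes instead of 1, and the differences in share stayed 1.08 and -4.19 points (exact sign-flip p = 0.25, the smallest 3 pairs allow).

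The share of all reads on long circRNAs was -0.733 points for those seen in 3 or more libraries, and that of coordinate-named reads was -8.21 points there and -2.58 points from 20000 bases. That filter lets in long circRNAs through the group in which they are high, so its 2 values support no direction. The number of long circRNAs seen differed by -2.67 from 20000 bases and by -10.5 to 31 with 1 library left out. The log2 ratio of reads to the shorter circRNAs was 0.129 without the most-read of each set, and 0.105 to 0.17 with 1 library left out, where p cannot pass (0.0625 at best). Of all circRNAs, 1 was called by edgeR and 0 to 1 with 1 library left out, none of them long. Leaving out 1 library gave 145 to 1299 mRNAs, 2 to 30 hosts and 0 to 1 biogenesis genes; 15 hosts were called from 5 FPKM and 14 after median-ratio scaling. The biogenesis count was 0 with pseudocount 0.5, without the filter, and after median-ratio scaling or quantile normalization. The cause of these shifts was not tested.

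Log2 differences near 0 changed sign when 1 library was left out. For circRNAs the range was -0.348 to 0.104 for Ppm1b and -0.401 to 0.173 for Med13. For mRNAs it was -0.0393 to 0.169 for Vps13b, -0.562 to 0.324 for Glcci1, -0.216 to 0.129 for Ttc3, -0.0365 to 0.111 for Ppm1b, -0.14 to 0.148 for Med13, -0.157 to 0.204 for Psme4, -0.0395 to 0.0697 for Ern1, -0.238 to 0.00682 for Sept10, -0.0855 to 0.11 for Adar, -0.254 to 0.00597 for Dbr1, -0.042 to 0.212 for Dhx9 and -0.225 to 0.0492 for Qk. With quantile normalization Med13 was at 0.0258, Psme4 at 0.0263 and Adar at 0.0343, and with median-ratio scaling Psme4 was at 0.00833 and Adar at 0.0141.

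With a median of 5 reads over 6 libraries, most long circRNAs cannot show a difference at this depth.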
